A study of Mus musculus with 18 samples.

Results

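The heat shock chaperones examined here are 9 genes of the HSP90, HSP70, HSP110 and chaperonin families, namely Hsp90ab1, Hsp90aa1, Hsp90b1, Hspa8, Hspa5, Hspa9, Hspa4, Hspd1 and Hspe1. They were taken by gene name from a table of 19736 genes, and all 9 were found. Their 11312 positions, of 1825851 in the table, held 17858 of 4857967 counts, or 0.368%. All 9 passed the filter on low counts. The table comes from ribose oxidation sequencing (RibOxi-seq), in which fragmented RNA is oxidized so that fragments ending in an unmethylated ribose lose their 3′ nucleotide, and the 3′ ends of the reads are counted at each genomic position. The values are raw counts of such ends in 9 oxidized libraries. The control libraries were not analysed here.

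The cells were 4T1, a mouse mammary carcinoma line labelled as breast cancer cells. All 3 genotypes carried a lentivirus for mCherry and Renilla luciferase and were grown in puromycin. WT cells were compared with Snord67KO-1 and Snord67KO-2, a pair of clones from which the small nucleolar RNA (snoRNA) gene Snord67 was deleted with Cas9, with 3 biologic replicates per genotype. Each knockout is a single-cell clone, so an effect of the deletion and a difference between clones cannot be told apart within a clone. What separated the replicates is not stated, so p-values measure only the spread between these libraries, which may be technical. Under the gene name Snord67 there was 1 count in all, in Snord67KO-1 replicate 1, and 0 in every WT library. The loss of Snord67 could therefore not be checked from these counts. The libraries were made from poly(A)-enriched RNA, and the study states that poly(A) selection leaves snoRNAs largely undetected. It reports the deletions from DNA sequencing and the loss of expression from RT-qPCR. From RibOxi-seq it also reports that knockout cells lost methylated reads at the Snord67 target site in U6 snRNA.

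Chaperones hold other proteins in a folding-competent state. HSP70 proteins bind short exposed stretches of unfolded chains in a cycle driven by ATP, with J-domain proteins loading them and exchange factors, among them the HSP110 proteins, releasing them. HSP90 proteins take over partly folded clients such as kinases and steroid receptors, and chaperonins enclose a chain inside a barrel. Cells keep separate family members in the cytosol, the endoplasmic reticulum and the mitochondria, and tumour cells generally express them at high levels.

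Of the 9 genes, Hspa8 is also a snoRNA host. Its introns hold the box C/D snoRNAs Snord14c (chr9:40803583-40803668, intron 5), Snord14d (chr9:40803995-40804080, intron 6) and Snord14e (chr9:40804748-40804837, intron 8), all on the plus strand of GRCm38. Snord14, also called U14, guides methylation of 18S rRNA and is needed for its processing. Nearly all intron counts of Hspa8 fell on these genes, so their sequences are shown 5′ to 3′, with capitals at the bases in which Snord14c and Snord14d differ. These differences are G47A and A49G, counted from the 5′ end of the snoRNA with the base of Snord14c first.
Snord14c: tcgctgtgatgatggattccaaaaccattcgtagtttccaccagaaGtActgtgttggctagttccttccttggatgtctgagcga
Snord14d: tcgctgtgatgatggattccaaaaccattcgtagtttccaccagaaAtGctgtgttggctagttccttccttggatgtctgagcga
Snord14e: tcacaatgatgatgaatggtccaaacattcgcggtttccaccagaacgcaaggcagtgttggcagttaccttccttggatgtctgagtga

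Some positions carry a mispriming mark in the deposited table, and how it was set is not given in the sources used here. Over all genes, the 6 exon bases after a marked position had the consensus CTGTAG, with C in the 1st place at 98.7% of 41137 marked positions. The linker ligated to the oxidized RNA also begins with CTGTAG in the study's list of oligonucleotides. Whether the mark was set from that sequence is not stated. For comparison with this pattern, sequence is shown around 3 marked and 3 unmarked positions. These had the most counts of their kind when the highest marked and the highest unmarked position of each chaperone were ranked. Each window on GRCm38 is read along the gene and ends its first 15 bases at the counted position, and the 6 capitals are the bases that follow.
Hspa5 chr2:34775138-34775167, plus strand, marked: tgattccaaggaacaCTGTGGtacccacca
Hspa4 chr11:53267028-53267057, minus strand, marked: aagtgaagaccagcaCTGTGGacctgccca
Hspd1 chr1:55086777-55086806, minus strand, marked: accttttagcagatgCTGTAGctgttacaa
Hspd1 chr1:55077984-55078013, minus strand, unmarked: tttcaacttaaatcaCTGAGGcatctctac
Hspa8 chr9:40804597-40804626, plus strand, unmarked: gtggaagatgagaaaCTTCAAggcaagatc
Hsp90b1 chr10:86691709-86691738, minus strand, unmarked: aaccagaagaagagcCTGAAGacacctcag
The 3 marked windows match the consensus at 5, 5 and 6 of the 6 bases in the order shown, and the 3 unmarked ones at 4, 3 and 5.

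Library totals were 625093 to 737219 counts (WT), 491836 to 686776 (Snord67KO-1) and 212463 to 423278 (Snord67KO-2). Where a library shows 0 counts, up to 3 are allowed, which is 4.07 to 14.1 counts per 1000000 (CPM), and limits and intervals cover counting error only. Marked positions took 17.8% of the counts in WT replicate 2 and between 1.38% and 7.22% in the other libraries, so values without them are given beside each result they touch. The epithelial markers Epcam, Cdh1, Krt8, Krt18 and Krt19 were all counted, with summed levels of 290 to 549 CPM (WT), 864 to 949.5 (Snord67KO-1) and 605 to 704 (Snord67KO-2). Markers of fibroblasts, leukocytes and endothelium had 41, 18 and 45 counts in all. The fibroblast sum was 1.57 to 6.78 CPM in WT, 10.2 to 23.8 in Snord67KO-1 and 0 to 2.71 in Snord67KO-2. The leukocyte sum was 0 to 1.57 CPM (WT), 1.46 to 17.8 (Snord67KO-1) and 0 to 7.09 (Snord67KO-2), the endothelial sum 4.70 to 5.43, 8.74 to 31.2 and 0 to 5.42 in the same order, and the part of these differences in the results below was not tested.

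Summed, the 9 chaperones held 0.357% ± 0.0744 of a WT library, 0.375% ± 0.0342 in Snord67KO-1 and 0.362% ± 0.0290 in Snord67KO-2 (SD, n = 3 each). The sum did not separate the genotypes, whose ranges overlapped, while single members moved in opposite directions. Members were among the more highly counted genes, from Hspa8, Hsp90ab1 and Hspa5 at ranks 61, 64 and 65 of 19417 genes with a count to Hspe1 at rank 1226. Per kilobase of exon, the level in WT was 211 CPM ± 82.4 for Hspa5, 198 ± 24.0 for Hsp90ab1, 184 ± 38.6 for Hspa8, 140 ± 42.3 for Hspd1, 123 ± 15.5 for Hsp90aa1, 118 ± 18.9 for Hspa9, 87.6 ± 14.2 for Hsp90b1, 76.6 ± 13.6 for Hspe1 and 30.7 ± 7.29 for Hspa4 (SD, n = 3). Among neighbours in this order, the step from Hspe1 down to Hspa4 was larger than the SDs of both combined. The steps from Hspa8 to Hspd1 and from Hspa9 to Hsp90b1 were larger than either SD alone, and the other neighbours did not differ beyond their spread. In Snord67KO-1 the order was led by Hsp90ab1 at 351 ± 42.7 and Hspa8 at 318 ± 41.5, with Hspd1 at 63.6 ± 8.55 and Hspa9 at 56.9 ± 9.55 near the end (CPM per kilobase, SD, n = 3). In Snord67KO-2, Hspa8 at 312 ± 28.5 and Hsp90ab1 at 269 ± 39.03 came first, Hspd1 stood at 95.5 ± 14.9 and Hspa9 at 69.3 ± 8.43. Hspa4 was lowest per kilobase in all 3 genotypes. A gene total here sums the read ends left after oxidation, so it depends on methylation as well as on the level of the RNA. The control libraries were not analysed, so these were not told apart. In bulk RNA, fewer cells with a transcript and less of it per cell cannot be told apart.

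**Figure D1:**
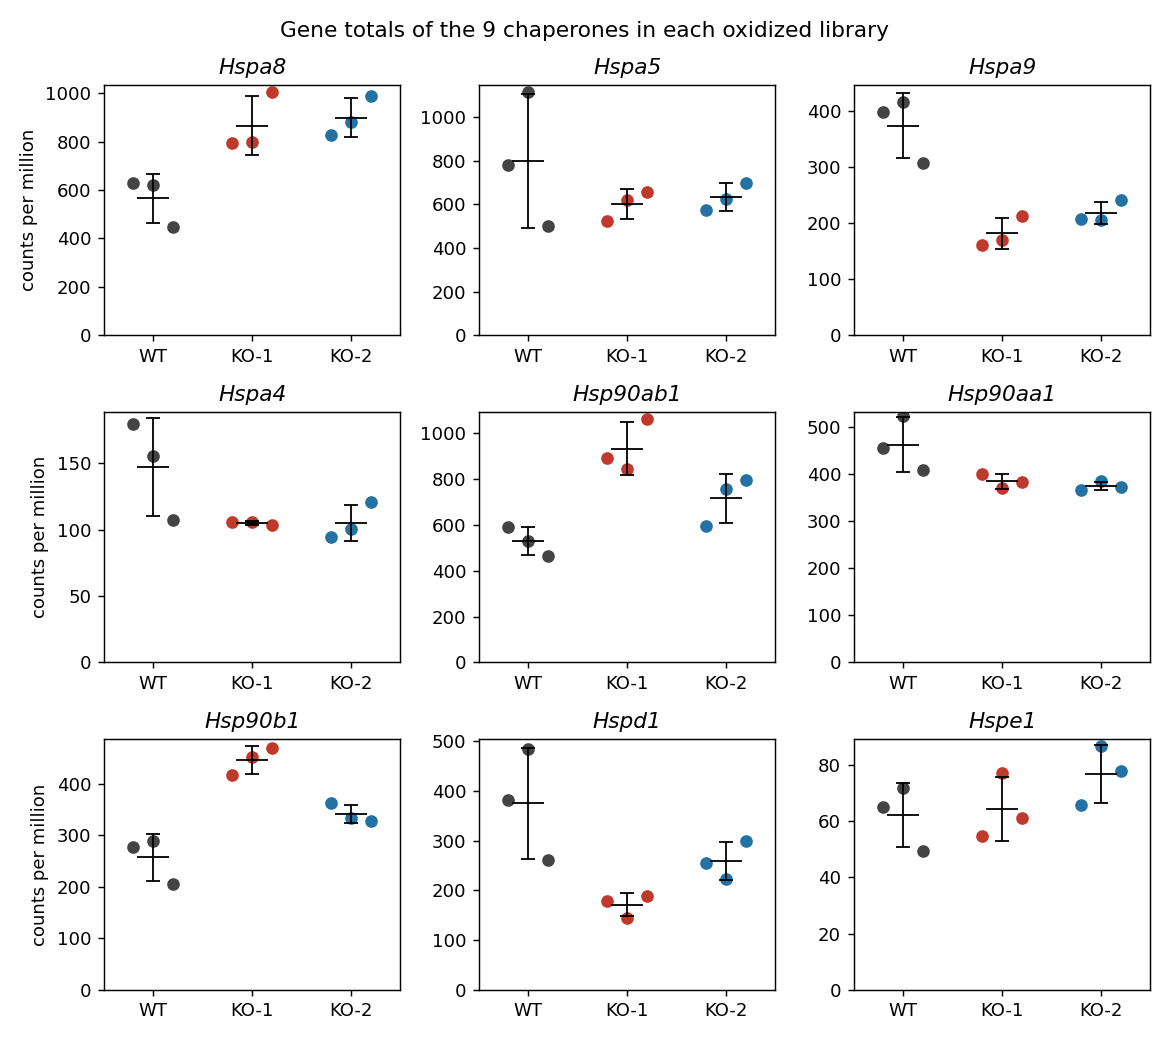
Gene totals of the 9 chaperones in CPM of the library, for WT, Snord67KO-1 (KO-1) and Snord67KO-2 (KO-2). Points are libraries, in order of replicate number, the long bar is the mean and the short bars are ± SD (n = 3). All 6 knockout libraries lie above the WT libraries for Hspa8, Hsp90ab1 and Hsp90b1 and below them for Hspa9 and Hsp90aa1, in CPM that are not TMM-scaled and hold marked positions.

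In CPM, all 6 knockout libraries were above all WT libraries for 3 of the 9 chaperones, against 4.54% of the genes tested, and below them for 2, against 3.78%. Some of these separations depended on marked positions or on the scaling. Without marked positions Snord67KO-2 overlapped WT for Hsp90ab1 and Hsp90b1, and with TMM scaling it overlapped WT for Hsp90aa1.

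Between genotypes, the HSP90 genes Hsp90ab1 and Hsp90b1 were higher in Snord67KO-1 than in WT, and the mitochondrial chaperones Hspa9 and Hspd1, together with Hspa4, were lower. In Snord67KO-2 the one chaperone called against WT was Hspa8, which was higher, and Hspd1 was higher than in Snord67KO-1. Gene totals were compared with edgeR's quasi-likelihood test, TMM scaling and Benjamini-Hochberg adjustment over all 6535 genes that passed the filter, at a threshold of 0.05. Log2 fold changes come from these scaled fits, while CPM values are not TMM-scaled. In Snord67KO-1 against WT, 2 of the 9 chaperones were called higher, against 10.6% of all genes tested, and 3 were called lower, against 8.09%, while DESeq2 called 1 higher and 2 lower. In Snord67KO-2 against WT, 1 was called higher, against 2.23%, and 0 lower, against 0.78%, with 1 lower (Hspa9) at an unadjusted p under 0.05 and 0 lower with DESeq2. Between the clones, 1 was higher in Snord67KO-2, against 1.59% of all genes, and 0 were lower, against 2.23%, with 0 lower at an unadjusted p under 0.05 or with DESeq2. The median log2 fold change of the 9 was -0.40 in Snord67KO-1, -0.08 in Snord67KO-2 and 0.39 between the clones, beside -0.03 for all genes in each. The comparisons with WT share the WT libraries. With library size alone in place of TMM, the median of all genes shifted to a log2 fold change of 0.10 in Snord67KO-1, -0.23 in Snord67KO-2 and -0.35 between the clones, so the values of Snord67KO-2 depend most on the scaling.

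Of the HSP90 genes, a cytosolic and a reticular one were called higher in Snord67KO-1. Hsp90ab1 (ENSMUSG00000023944.14, chr17:45567775-45573271, minus strand), which encodes the constitutive cytosolic HSP90, had 589, 529 and 465.5 CPM in WT, 889, 844 and 1061 in Snord67KO-1, and 593, 754 and 796 in Snord67KO-2. In CPM every knockout library was above every WT library, although the lowest Snord67KO-2 library exceeded WT replicate 1 by little. The log2 fold change was 0.68 (SE 0.205, adjusted p = 0.0311) in Snord67KO-1 and 0.63 (SE 0.208, adjusted p = 0.110) in Snord67KO-2. The call in Snord67KO-1 was lost in 8 of the 9 fits that left out 1 library, all except that without WT replicate 3, with adjusted p from 0.0589 to 0.165, and without the filter on low counts (adjusted p = 0.118). It stayed without marked positions (log2 fold change 0.57, adjusted p = 0.0168).

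Hsp90b1 (ENSMUSG00000020048.13, chr10:86690209-86705509, minus strand) encodes GRP94, the HSP90 of the endoplasmic reticulum. It had 278, 289.6 and 205 CPM in WT, 417, 451 and 470.3 in Snord67KO-1, and 362, 334 and 328 in Snord67KO-2. In CPM the 6 knockout libraries were above the WT libraries, with Snord67KO-1 highest, and without marked positions Snord67KO-2 overlapped WT. The log2 fold change was 0.67 (SE 0.203, adjusted p = 0.0308) in Snord67KO-1 and 0.63 (SE 0.208, adjusted p = 0.111) in Snord67KO-2. The call was lost without WT replicate 1 or 3, Snord67KO-1 replicate 2 or 3, or Snord67KO-2 replicate 2 or 3, with adjusted p from 0.0520 to 0.117, and also with DESeq2 (adjusted p = 0.0560) and without the filter on low counts (adjusted p = 0.131). Of its 1683 counts, 786 lay where the pseudogene 1810014B01Rik is annotated on the opposite strand, and the table gives no strand.

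Hsp90aa1 (ENSMUSG00000021270.13, chr12:110690605-110702728, minus strand), which encodes the stress-inducible cytosolic HSP90, had 456, 524 and 409.5 CPM in WT, 401, 370.0 and 384 in Snord67KO-1, and 367, 385 and 373 in Snord67KO-2. In CPM the 6 knockout libraries lay below the WT libraries in a narrow range, and after TMM scaling Snord67KO-2 overlapped WT. Its log2 fold change was -0.40 (SE 0.188, adjusted p = 0.150) in Snord67KO-1 and -0.09 (SE 0.191, adjusted p = 0.857) in Snord67KO-2, neither past the threshold. Without marked positions, which held 15.5% (95% Wilson interval 12.0 to 19.8) of its counts in WT replicate 2, the value for Snord67KO-1 was -0.47 with an adjusted p of 0.0381. In that fit Hsp90aa1 took the place of Hspa4, so that again 2 of 9 chaperones were called higher in Snord67KO-1, against 12.2% of 5504 genes tested, and 3 lower, against 9.47%. In Snord67KO-2 the same fit called 1 higher, against 3.14%, and 0 lower, against 1.11%. Of the mRNA counts of Hsp90aa1, 75.2% lay in stretches of 25 bases that also occur in other genes or pseudogenes. The share was 24.6% for Hsp90ab1 and 2.63% for Hsp90b1. How reads mapping to several places were handled is not given in the sources used here.

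**Figure D2:**
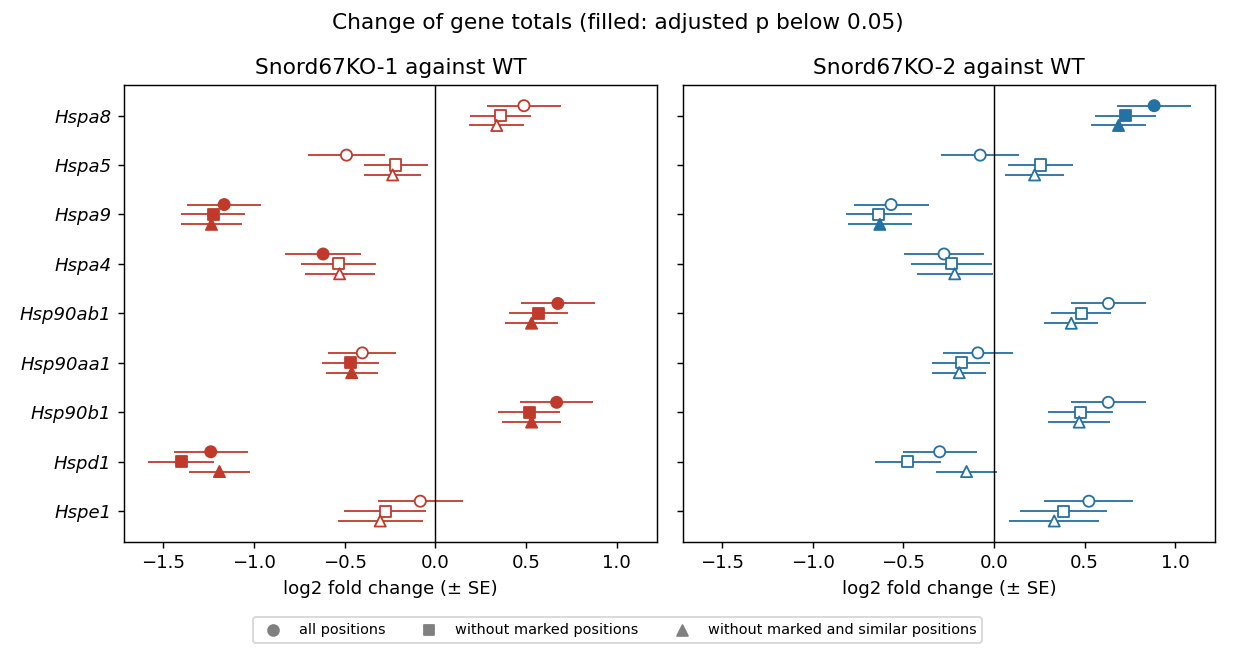
Log2 fold changes of the chaperones in Snord67KO-1 (left) and Snord67KO-2 (right) against WT from edgeR fits over all genes, with bars of ± SE. Circles are all positions, squares leave out marked positions, triangles also leave out positions with a similar following sequence, and filled symbols have an adjusted p below 0.05. Hspa9 and Hspd1 are filled and near or below -1 in Snord67KO-1 for all 3 symbols, and Hspa8 is filled for all 3 in Snord67KO-2.

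Of the HSP70 genes, cytosolic Hspa8 was called higher in Snord67KO-2 and mitochondrial Hspa9 lower in Snord67KO-1. Hspa8 (ENSMUSG00000015656.17, chr9:40800984-40810087, plus strand) encodes HSC70, the constitutive cytosolic HSP70 that also uncoats clathrin vesicles. It had 629, 619.8 and 448 CPM in WT, 794, 797 and 1006 in Snord67KO-1, and 828, 881.5 and 987.5 in Snord67KO-2, so that all 6 knockout libraries were above all WT libraries. On the log2 scale the fold change was 0.88 (SE 0.205, adjusted p = 0.0276) in Snord67KO-2 and 0.49 (SE 0.202, adjusted p = 0.104) in Snord67KO-1. The difference between the clones was 0.39 (SE 0.203, adjusted p = 0.323), so they were not shown to differ. The call in Snord67KO-2 was lost with library size alone, at 0.67 and adjusted p = 0.137, without the filter on low counts (adjusted p = 0.0591), and without WT replicate 1 or 3 or any 1 of the Snord67KO-2 libraries, with adjusted p from 0.0506 to 0.153. With only positions in exons of any annotated transcript kept, for all genes, the value in Snord67KO-1 was 0.61 with an adjusted p of 0.0345. In Snord67KO-2 it was 0.88 as before. The Snord67KO-1 value of Hsp90aa1, which had only 3 intron counts, also rose in that fit, from -0.40 to -0.27. Whether the rise for Hspa8 came from its introns was not tested. Of the Hspa8 counts on the mRNA, introns aside, 96.7% lay in 25-base stretches shared with at least 1 of 16 annotated pseudogenes.

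Hspa9 (ENSMUSG00000024359.10, chr18:34937414-34954357, minus strand) encodes mortalin, the HSP70 of the mitochondrial matrix that pulls imported chains across the membrane. It had 399, 416 and 307 CPM in WT, 162, 171 and 213 in Snord67KO-1, and 207, 206 and 241 in Snord67KO-2. The highest knockout library was below the lowest WT library. The log2 fold change was -1.17 (SE 0.204, adjusted p = 0.00122) in Snord67KO-1, and the call stayed in all 20 alternative fits with values from -1.35 to -1.03. In Snord67KO-2 the value was -0.57 (SE 0.207, adjusted p = 0.151). The difference between the clones was 0.60 (SE 0.211, adjusted p = 0.127), so they were not shown to differ in this fit. Without marked positions and those with a similar following sequence, described with the marked positions below, the Snord67KO-2 value was -0.63 with an adjusted p of 0.0357. Without WT replicate 2 the difference between the clones passed, at 0.62 with an adjusted p of 0.0429.

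Hspa5 (ENSMUSG00000026864.13, chr2:34771970-34777547, plus strand) encodes BiP, the HSP70 of the endoplasmic reticulum and sensor of unfolded protein there. It had 781, 1116 and 499 CPM in WT, 524, 622 and 655 in Snord67KO-1, and 574, 626.5 and 699 in Snord67KO-2. The WT libraries spanned the whole range of the knockout libraries. Its log2 fold change was -0.49 (SE 0.212, adjusted p = 0.120) in Snord67KO-1 and -0.08 (SE 0.214, adjusted p = 0.895) in Snord67KO-2. The value in Snord67KO-2 turned to 0.26 without marked positions and to 0.04 without WT replicate 2, none of these past the threshold. Its sequence is nearly private, with 0% of mRNA counts in shared stretches.

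Hspa4 (ENSMUSG00000020361.13, chr11:53259814-53300457, minus strand) belongs to the HSP110 proteins, which release nucleotide from HSP70. It had 179, 155 and 107 CPM in WT, 105, 106 and 103 in Snord67KO-1, and 94.1, 100.4 and 120.5 in Snord67KO-2. In CPM the Snord67KO-1 libraries were just below WT replicate 3, the lowest of WT, which they overlapped without marked positions, and the Snord67KO-2 libraries overlapped WT. After TMM scaling the Snord67KO-2 libraries were below the WT libraries, at 115.4 to 121.5 against 124.5 to 177.6. On the log2 scale the fold change was -0.62 (SE 0.210, adjusted p = 0.0497) in Snord67KO-1 and -0.28 (SE 0.221, adjusted p = 0.546) in Snord67KO-2. This call was the least stable of the 5 in Snord67KO-1, staying in 3 of 20 alternative fits. It was lost without marked positions (-0.53, adjusted p = 0.0709) and without WT replicate 1, any 1 of the Snord67KO-1 or any 1 of the Snord67KO-2 libraries, with adjusted p from 0.0558 to 0.195, and it was stronger without WT replicate 2 (-0.77, adjusted p = 0.0118).

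Hspd1 and Hspe1 encode HSP60 and HSP10, the barrel and the lid of the mitochondrial chaperonin, and lie head to head on chromosome 1. Hspd1 (ENSMUSG00000025980.14, chr1:55077835-55088243, minus strand) had 381, 484 and 261 CPM in WT, 178, 144 and 189 in Snord67KO-1, and 254, 222 and 300.0 in Snord67KO-2. The Snord67KO-1 libraries were the lowest of all, and the Snord67KO-2 libraries overlapped WT. The log2 fold change was -1.24 (SE 0.203, adjusted p = 0.000775) in Snord67KO-1, and the call stayed in all 20 alternative fits with values from -1.40 to -1.09. In Snord67KO-2 it was -0.30 (SE 0.204, adjusted p = 0.458). The difference between the clones was 0.94 (SE 0.209, adjusted p = 0.0211), higher in Snord67KO-2. That difference was lost with library size alone, at 0.60 and adjusted p = 0.215, without introns, at 0.79 and adjusted p = 0.0572, and without Snord67KO-1 replicate 1 or 2 or any 1 of the Snord67KO-2 libraries, with adjusted p from 0.0656 to 0.103.

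Hspe1 (ENSMUSG00000073676.4, chr1:55088132-55091307, plus strand) was not called in any comparison. It had 65.1, 72.0 and 49.6 CPM in WT, 54.9, 77.3 and 61.2 in Snord67KO-1, and 65.9, 86.8 and 78.0 in Snord67KO-2, with all 3 genotypes overlapping. After TMM scaling the Snord67KO-2 libraries were above the WT libraries, at 77.5 to 99.8 against 57.8 to 64.6. Its log2 fold change was -0.08 (SE 0.233, adjusted p = 0.848) in Snord67KO-1 and 0.52 (SE 0.246, adjusted p = 0.264) in Snord67KO-2. The difference between the change of Hspd1 and that of Hspe1 was not tested. The genes overlap by annotation from 55088132 to 55088243, where 1 count of Hspe1 and 0 of Hspd1 fell. Of the mRNA counts, 55.9% for Hspd1 and 72.4% for Hspe1 lay in 25-base stretches shared with other loci, and 27.3% for Hspa9.

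Most chaperone counts were thinly spread. Of the 8546 positions with a count, 4927 had a single count over the 9 libraries, from 40.1% in Hspa8 to 86.7% in Hspa4. The coding sequence held 59.5% of the counts in Hspe1 and 90.6% in Hsp90ab1, with the other members between. Per kilobase, coding sequence and 3′ UTR had 1479 and 1128 counts in Hsp90ab1, and 1459 and 269 in Hspa5. The last of 3 equal segments of the mRNA held the smallest share in Hspa5, with 4.52% ± 1.10 of mRNA counts (WT), 3.33% ± 1.48 (Snord67KO-1) and 4.02% ± 2.10 (Snord67KO-2; SD, n = 3). The same segment held 45.9% ± 7.50 of Hspa8 counts and 60.4% ± 2.90 of Hspe1 counts in WT (SD, n = 3). For Hsp90ab1 the share was 32.4% ± 2.75 in WT and 27.5% ± 2.00 in Snord67KO-2, and for Hspd1 39.5% ± 8.87 and 29.7% ± 2.44 (SD, n = 3), with no test of either difference.

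**Figure D3:**
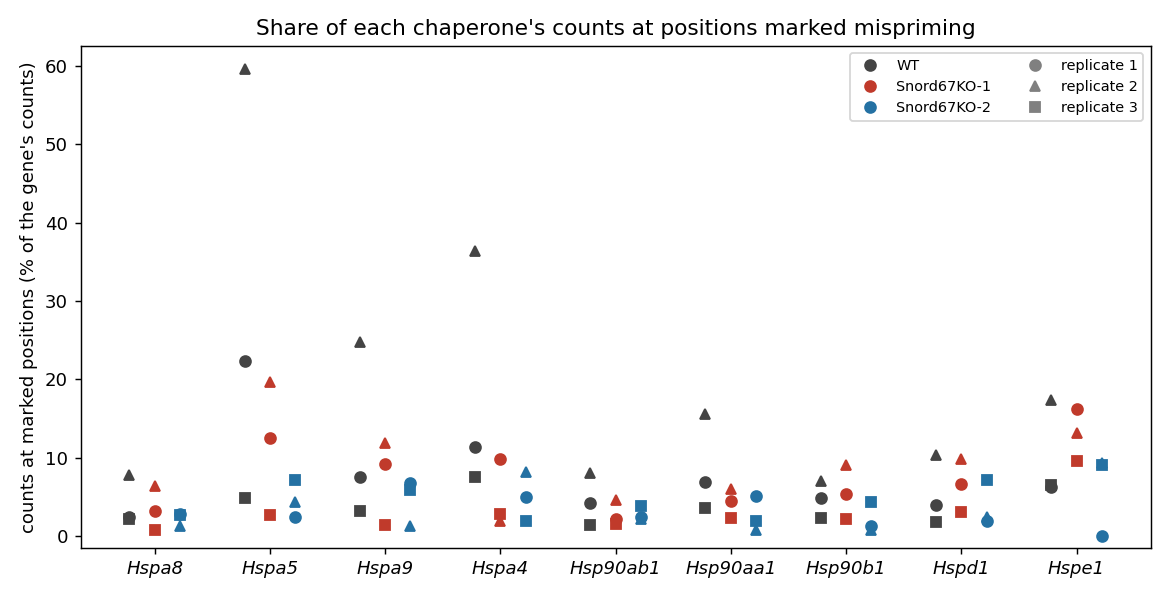
Share of each chaperone's counts that fell on positions marked mispriming, in percent of the gene's counts in that library. Colours are genotypes and shapes are replicate numbers. WT replicate 2 is highest for Hspa5 (59.6%), Hspa4 (36.4%) and Hspa9 (24.8%).

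Marked positions made up 185 of the chaperone positions and held 1453 of their 17858 counts. In Hspa5 they took 129 of 576, 425 of 713 and 15 of 312 counts in the WT libraries, 44 of 353, 60 of 306 and 12 of 450 in Snord67KO-1, and 3 of 122, 10 of 231 and 21 of 296 in Snord67KO-2. WT replicate 2 stood apart, at 59.6% (95% Wilson interval 56.0 to 63.2), and the highest of the other libraries was WT replicate 1 at 22.4% (19.2 to 26.0). Once these positions were left out of both gene and library total, Hspa5 had 558 ± 76.0 CPM (WT), 556 ± 83.5 (Snord67KO-1) and 618 ± 52.7 (Snord67KO-2; SD, n = 3), against 799 ± 309, 600.5 ± 68.2 and 633 ± 62.8 with them. In WT replicate 2, marked positions also took 36.4% (27.6 to 46.2) of Hspa4 counts and 24.8% (20.0 to 30.3) of Hspa9 counts. Of the 170 marked chaperone positions with an exon sequence of 6 bases after them, 169 (99.4%) matched the consensus CTGTAG at 4 or more bases, against 332 of 10665 unmarked ones (3.11%). Among the 62 unmarked positions with at least 10 counts the figure was 15 (24.2%). Such unmarked positions, called similar here, held 908 chaperone counts, of which 261 lay in Hspd1.

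The single position with the most counts was 34775152 in Hspa5, in the coding sequence of exon 8 of 9, whose window is the first shown above. It had 107, 391 and 12 counts in the WT libraries, 29, 47 and 5 in Snord67KO-1, and 2, 5 and 17 in Snord67KO-2. Its 615 counts, 391 of them in WT replicate 2, were 18.3% of all Hspa5 counts. The next was 55077999 in the 3′ UTR of Hspd1, which is not marked and had 33, 85 and 9 counts in WT, 7, 9 and 4 in Snord67KO-1, and 1, 3 and 6 in Snord67KO-2. WT replicate 2 was again highest, and this position held 11.7% of Hspd1 counts. In Hspa8, the unmarked position 40804611 in exon 8 had 21, 34 and 8 counts in WT, 24, 21 and 7 in Snord67KO-1, and 1, 1 and 8 in Snord67KO-2. The highest position of Hspa4, the marked 53267043 in exon 14, held 8.67% of its counts, with 13, 28 and 4 in WT, 4, 1 and 1 in Snord67KO-1, and 1, 0 and 0 in Snord67KO-2. With the highest position of every member left out, Hspa4 was no longer called in Snord67KO-1 (-0.44, adjusted p = 0.203), and Hsp90ab1, Hsp90b1, Hspa9 and Hspd1 still were.

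Counts at a position depend on both the level and the methylation of the RNA, so positions were compared relative to the other counts of their gene. Of 2051 positions that reached 10 counts in 3 or more libraries, 2 lay in chaperones, 34775152 in Hspa5 and 40804611 in Hspa8. With edgeR's quasi-likelihood test, 0 of the 2051 were called in either clone against WT, or 0.0% in Snord67KO-1 and 0.0% in Snord67KO-2, with 110 and 355 at an unadjusted p under 0.05, while DESeq2 called 5 and 21. The Hspa5 position had a log2 fold change of -2.41 (SE 1.18, adjusted p = 0.760) in Snord67KO-1 and -3.82 (SE 1.29, adjusted p = 0.276) in Snord67KO-2. With DESeq2 the adjusted p for Snord67KO-2 was 0.0427. The Hspa8 position had -0.62 (SE 0.709, adjusted p = 0.820) and -2.44 (SE 0.827, adjusted p = 0.276) in the same order. It passed the filter only through libraries of WT and Snord67KO-1. Both filters used here are on raw counts and the Snord67KO-2 libraries were the smallest. They therefore favour positions that are low in Snord67KO-2, and no conclusion is drawn from low values or small unadjusted p there. The depth let only these 2 positions be tested, 1 of them marked, and the other 7 chaperones had none. With a filter of 5 counts in 3 libraries, 15 chaperone positions were tested and 0 of all 4679 called by edgeR in either clone, with 263 and 739 at an unadjusted p under 0.05.

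The introns of Hspa8 held 398 of its 3677 counts, or 10.8%, whereas introns of the other members held 0.148% (Hsp90aa1) to 4.67% (Hspa4). Of the 398, 385 (96.7%) lay inside the Snord14 genes, with 146 in Snord14c, 189 in Snord14d and 50 in Snord14e. The 262 bases of these genes thus held nearly all intron counts, and the other 1401 intron bases held 13. The intron values below are therefore mostly counts over snoRNA genes. Whether these ends came from the snoRNAs or from unspliced introns was not tested. Of the intron positions, 0 were marked.

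**Figure D4:**
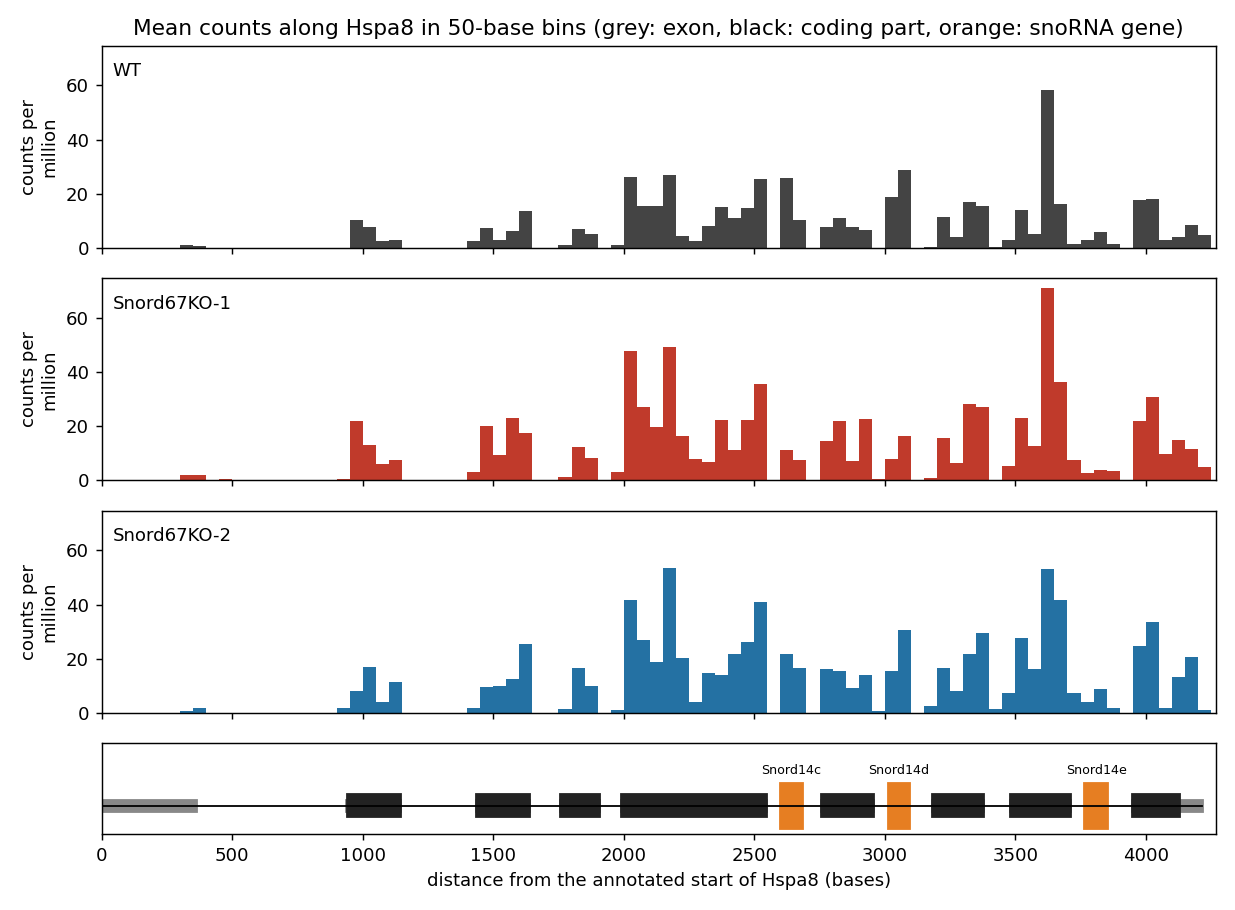
Mean CPM along Hspa8 in bins of 50 bases for WT, Snord67KO-1 and Snord67KO-2 (n = 3 each), by distance from the annotated start of the gene. The lower panel shows exons in grey, their coding part in black and the Snord14 genes in orange. Counts between exons stand over the orange boxes.

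Intron counts of Hspa8 were 107, 87.7 and 91.2 CPM in WT, 37.1, 50.8 and 71.4 in Snord67KO-1, and 75.3, 125 and 106 in Snord67KO-2. The Snord67KO-1 libraries were below all WT libraries, and Snord67KO-2 overlapped WT. Over both clones, the mean was 77.6 CPM ± 33.0 (SD, n = 6) against 95.3 ± 10.4 (SD, n = 3) in WT, a difference of -17.7 CPM (two-sided exact permutation test, p = 0.405). This was 1 of 2 such tests, with 84 arrangements and a smallest possible p of 0.0119.

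As a share of all Hspa8 counts, introns took 17.0% (79 of 464, 95% Wilson interval 13.9 to 20.7), 14.1% (56 of 396, 11.1 to 17.9) and 20.4% (57 of 280, 16.1 to 25.5) in the WT libraries. The share was 4.67% (25 of 535, 3.19 to 6.81), 6.38% (25 of 392, 4.36 to 9.24) and 7.09% (49 of 691, 5.41 to 9.25) in Snord67KO-1. In Snord67KO-2 it was 9.09% (16 of 176, 5.67 to 14.3), 14.2% (46 of 325, 10.8 to 18.4) and 10.8% (45 of 418, 8.14 to 14.1). Snord67KO-1 lay below WT throughout, and the highest Snord67KO-2 library reached the level of the lowest WT library. The means were 17.2% ± 3.11 (WT), 6.05% ± 1.24 (Snord67KO-1) and 11.3% ± 2.58 (Snord67KO-2; SD, n = 3). Both clones together, at 8.69% ± 3.42 (SD, n = 6), differed from WT by -8.48 percentage points (p = 0.0238 in the two-sided exact permutation test, and 0.0476 after adjusting both tests by Benjamini-Hochberg). The 6 knockout libraries came from only a pair of clones, and libraries of the same clone are not separate knockouts. Both tests therefore measure the spread between libraries, not between clones. The share has all Hspa8 counts as its base, and these were higher in the knockout libraries. Without the Snord14 genes the difference was -0.206 (p = 0.476, same exact permutation test). Without WT replicate 1 or 3 the p was 0.0714, and without any 1 of the Snord67KO-1 libraries, or Snord67KO-2 replicate 1 or 3, it was 0.0536 (same exact permutation test).

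The Snord14c and Snord14d genes lie 412 bases apart and differ in only the 2 bases shown above. Counts began at base 20 of the snoRNA. At 25 of the 59 bases with a count in either gene, both had identical counts in every library and 75 counts in all. How reads that fit both genes were assigned is not given in the sources used here. With these counted once, the difference in intron share was -7.05 (two-sided exact permutation test, p = 0.0119, the smallest possible). At the remaining bases Snord14c had 71 counts and Snord14d 114. Base 50 of Snord14d, at position 40804044, had 29 counts, with 7, 6 and 1 in WT, 2, 1 and 0 in Snord67KO-1, and 2, 7 and 3 in Snord67KO-2, whereas base 50 of Snord14c had 2. This base lies just past the differing ones, and it was the most counted intron position. Snord14e, whose sequence differs more, had 8, 9 and 3 counts in WT, 4, 8 and 3 in Snord67KO-1, and 3, 4 and 8 in Snord67KO-2, with the genotypes overlapping.

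**Figure D5:**
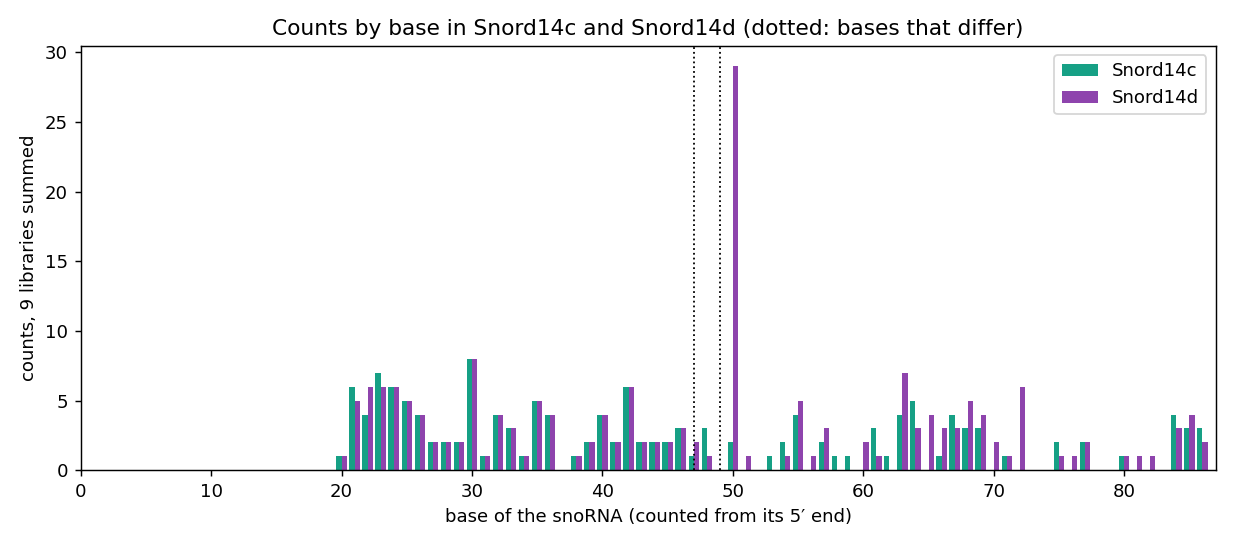
Counts at each base of Snord14c (green) and Snord14d (purple), summed over the 9 libraries, by base from the 5′ end of the snoRNA. Dotted lines mark the bases that differ, 47 and 49. The bars are of nearly equal height before them, and base 50 of Snord14d has 29 counts against 2 in Snord14c.

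Partners of the chaperones were described through 7 lists with 103 genes, of which 78 were tested. In Snord67KO-1, 10 were higher (12.8%) and 8 lower (10.3%), beside 10.6% and 8.09% of all genes. DESeq2 called 6 higher and 1 lower. In Snord67KO-2, 3 were higher (3.85%, beside 2.23% of all genes) and 0 lower, with 5 lower at an unadjusted p under 0.05, while DESeq2 called 1 higher and 0 lower. Of other HSP70 and HSP110 genes, 5 of 11 were tested and 1 rose, Hspa4l, a relative of Hspa4, from 23.6 CPM ± 1.95 to 74.8 ± 8.85 in Snord67KO-1 (SD, n = 3; log2 fold change 1.52, SE 0.260, adjusted p = 0.00103). This call stayed whichever library was left out. Hyou1, the HSP110 of the endoplasmic reticulum, had 277 ± 210 CPM in WT and 131 ± 63.1 and 81.9 ± 28.8 in the clones (SD, n = 3), with adjusted p of 0.0547 and 0.0756.

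Of the J-domain genes, 17 of 22 were tested, with 2 higher and 4 lower in Snord67KO-1, beside 10.6% and 8.09% of all genes, and 1 higher in Snord67KO-2, beside 2.23%. Dnajc10, a reductase of the endoplasmic reticulum, was higher in both clones, by 1.06 (adjusted p = 0.0101) and 1.09 (adjusted p = 0.0432) on the log2 scale. Dnaja3, a mitochondrial partner of Hspa9, fell by 1.32 (adjusted p = 0.0287) in Snord67KO-1, and Dnajc13, an endosomal protein, fell by 0.84 (adjusted p = 0.0329). The call of Dnajc10 was lost in Snord67KO-1 without its replicate 3 (adjusted p = 0.0536) and in Snord67KO-2 in 7 of the 9 fits without 1 library, all but those without WT replicate 1 or Snord67KO-1 replicate 3, with adjusted p up to 0.235. That of Dnaja3 was lost without WT replicate 1 or Snord67KO-1 replicate 1, and that of Dnajc13 without WT replicate 2 or Snord67KO-1 replicate 1 or 2, with adjusted p up to 0.120 and 0.111. With DESeq2, Dnaja3, Dnajc13 and, in Snord67KO-2, Dnajc10 were not called. The other genes called were Dnajb1 (higher), Dnajb6 and Dnajc2 (lower), named after their values were seen. Dnaja2, the most counted, had -0.13 and -0.01 in the clones. The median over this list was -0.02 in Snord67KO-1, against -0.03 over all genes.

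Exchange factors and adaptors had 9 of 13 tested and 1 higher in Snord67KO-1, beside 10.6% of all genes. This was Sil1, the exchange factor of BiP, at 1.70 (SE 0.447, adjusted p = 0.0152) on 91 counts in all. Its call was lost without Snord67KO-1 replicate 1 (adjusted p = 0.115). Stip1, which links HSP70 to HSP90, had -0.39 (adjusted p = 0.286) in Snord67KO-1. Of 16 HSP90 co-chaperones and mitochondrial HSP90, 15 were tested, with 0 called in Snord67KO-2, beside 2.23% higher and 0.78% lower of all genes. In Snord67KO-1, 2 were higher and 2 lower, beside 10.6% and 8.09% of all genes. The immunophilins Fkbp8 and Fkbp5 rose by 1.13 (adjusted p = 0.0101) and 1.15 (adjusted p = 0.0385), and Chordc1 fell by 0.89 (adjusted p = 0.0273), with Fkbp4, named after its value was seen, the other one lower. The call of Fkbp8 stayed whichever library was left out, that of Chordc1 was lost without Snord67KO-1 replicate 3 (adjusted p = 0.117), and that of Fkbp5 was lost in 6 of the 9 fits, all but those without WT replicate 1 or Snord67KO-2 replicate 1 or 2, with adjusted p up to 0.151. Chordc1 and Fkbp5 were not called with DESeq2. Cdc37l1, the most counted of them, had -0.02 and 0.44 in the clones, neither past the threshold.

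The cytosolic chaperonin TRiC and its helper prefoldin had 13 of 14 genes tested. In Snord67KO-1, 0 were higher and 2 lower, beside 10.6% and 8.09% of all genes. Cct6a fell by 1.01 (SE 0.232, adjusted p = 0.00695) and Cct8 by 0.82 (SE 0.255, adjusted p = 0.0353), while Cct5 had 0.03 (adjusted p = 0.944). Without Snord67KO-1 replicate 1 neither passed, and Cct8 was also lost without WT replicate 1 or 3 or Snord67KO-1 replicate 2, with adjusted p up to 0.0529 for Cct6a and 0.132 for Cct8. With DESeq2, Cct6a was called and Cct8 was not. Folding and stress genes of the endoplasmic reticulum, the compartment of Hspa5 and Hsp90b1, had 15 of 18 tested, with 4 higher and 0 lower in Snord67KO-1, beside 10.6% and 8.09% of all genes, and 2 higher in Snord67KO-2, beside 2.23%. Calreticulin, Calr, rose from 67.2 CPM ± 5.59 to 149 ± 26.8 and 143.5 ± 25.5 (SD, n = 3), with log2 fold changes of 1.00 (adjusted p = 0.0115) and 1.27 (adjusted p = 0.0146). The disulfide isomerases Pdia3, at 0.65 (adjusted p = 0.0381) and 0.82 (adjusted p = 0.0491), and Pdia6, at 0.95 (adjusted p = 0.0118) and 0.30 (adjusted p = 0.574), were also higher, the latter past the threshold against WT in Snord67KO-1 but with an adjusted p of 0.166 between the clones, and Herpud1, named after its value was seen, was the other one called. The list's median was 0.21 and 0.43 in the clones, against -0.03 over all genes in both. The calls of Calr were lost without Snord67KO-1 replicate 3 (adjusted p = 0.0679) in that clone and without any 1 Snord67KO-2 library (adjusted p up to 0.0823) in the other. That of Pdia6 was lost without Snord67KO-1 replicate 2 (adjusted p = 0.0660), and those of Pdia3 in 8 of 9 fits in each clone, all but that without WT replicate 3, with adjusted p up to 0.155 and 0.226. With DESeq2, Pdia3 was called in neither clone. Canx, the most counted, had 0.22 and 0.19, neither past the threshold. Among heat shock factors and small heat shock proteins, 4 of 9 were tested and 0 called in any comparison by edgeR or DESeq2, with 1 lower in Snord67KO-1 at an unadjusted p under 0.05, and the most counted, Hsbp1, had -0.11 and 0.19. Between the clones 1 of the 78 list genes tested was called higher, beside 1.59% of all genes. This was Atf4, higher in Snord67KO-2 and named after its value was seen, and with DESeq2 0 were called.

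Patterns over the 9 libraries were compared by the root mean square difference of log2(CPM + 1), each gene centred on its mean, over 1695 genes with a mean of at least 50 CPM. The genes most like Hspa8 were Wbp5 (0.0924), 1700016L04Rik (0.102) and Cdc42 (0.112), and Hsp90ab1 was at rank 25 (0.205). Those most like Hsp90ab1 were Wdr36 (0.103), Pls3 (0.103) and Smarcd1 (0.115), with Hsp90b1 at rank 24 (0.174). Hspa9 and Hspd1 were far from Hspa8, at ranks 1351 and 1345. These ranks describe the same libraries as the fold changes and add no separate evidence.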

How the data were processed

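Oxidized RibOxi-seq libraries of poly(A)-enriched 4T1 RNA were made by the authors with Benzonase fragmentation, 2 rounds of oxidation and elimination and ligation of a linker. Per the study's methods, reads were trimmed with cutadapt, merged with PEAR and mapped with STAR, and the deposited values are raw counts of read 3′ ends per position, not normalized. The methods name an m39 genome and the submitters' notes mm10. Positions fit GRCm38, the build of mm10: 98.6% lay inside the named gene in GENCODE M21, which served for regions, names and sequences. The handling of duplicates, of reads with several places and of the mispriming mark is not given in the sources used here.

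Counts were summed per gene in each of the 9 libraries, and genes were kept by the default count filter of edgeR (filterByExpr). The members and lists were chosen with earlier results of these data known. Named list genes are the up to 3 with the smallest p among those called against WT, and the most counted one of each list. edgeR 4.0.16 (quasi-likelihood, TMM, all genotypes in 1 fit, Benjamini-Hochberg adjustment) was used in R 4.3.3, with DESeq2 1.42.0 as an alternative, and positions were fitted with the log of the other counts of their gene plus 1 as an offset. The scripts were tested on simulated data. The intron values of Hspa8 were compared with exact permutation tests (Python 3.11.15, numpy 2.4.6), and intervals are Wilson intervals at 95% (scipy 1.17.1). Alternatives were the filter, the scaling, the tool, leaving out marked positions, introns, Rn45s or 1 library, and a replicate block. The fit without introns kept positions in exons of any annotated transcript of a gene. Intron counts of the members are those outside the exons of their protein-coding transcripts. Leaving out similar positions, leaving out the highest position of each member and counting shared snoRNA counts once were chosen after seeing the data.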

Additional observations from a re-analysis of the deposited data

Results flagged for a closer look

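Hspd1 stood out because its change against WT differed between the clones: the log2 fold change from Snord67KO-1 to Snord67KO-2 was 0.94 (SE 0.209, edgeR adjusted p = 0.0211), and all 3 Snord67KO-2 libraries had higher CPM than all 3 Snord67KO-1 libraries. No cause was tested.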

How the results depend on the processing

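Of the chaperone calls, those of Hspa9 and Hspd1 in Snord67KO-1 stayed in all 20 alternatives. The alternatives that ended the other chaperone calls are given beside them in the report, except for Hspa4, which was also lost without introns (adjusted p = 0.0865), without Rn45s (0.0523), with library size alone (0.212), with DESeq2 (0.160), with its size factors in edgeR (0.0529), without the filter (0.0539) and without marked and similar positions (0.0507). Over all genes, 1224 were called in Snord67KO-1 against WT, 197 in Snord67KO-2 against WT and 250 between the clones. In that order, DESeq2 called 642, 130 and 110 and no filter on low counts 2057, 436 and 462. Library size alone gave 755 and 35 in the comparisons with WT. Leaving out introns gave 739 in Snord67KO-1 and 86 between the clones, and a filter of 50 counts in 3 libraries 277 and 62, with fewer genes tested. Between the clones, 377 were called without marked positions and 419 without marked and similar ones. Leaving out 1 library gave 624 (without Snord67KO-1 replicate 1) to 1365 (without Snord67KO-2 replicate 1), 34 (without Snord67KO-2 replicate 2) to 325 (without WT replicate 3), and 53 (without Snord67KO-2 replicate 2) to 511 (without WT replicate 2). Of positions, 1 was called in each clone without the offset, and 5 and 21 with DESeq2. Without Rn45s in the total, the chaperones' summed share was 0.459% (WT), 0.491% (Snord67KO-1) and 0.513% (Snord67KO-2).

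For introns of Hspa8, leaving out the snoRNA genes changed the difference to 0.236 CPM (p = 0.917, exact permutation test) and -0.206 percentage points, and leaving out 1 library moved the share's difference from -10.0 to -6.89. Same-numbered libraries of different genotypes correlated between -0.154 and 0.351 in their deviations, so the numbers were not taken as a pairing. With the replicate block the share's difference was -8.48 (p = 0.0741, exact permutation test, smallest possible 0.0370), the calls over all genes were 1343, 279 and 279, and Hspa4 was lost in Snord67KO-1 (adjusted p = 0.0578).

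Some values that did not pass the threshold changed sign. Hspa5 in Snord67KO-2 was 0.26 without marked positions, 0.22 without marked and similar ones, 0.37 without the highest position of each member, and -0.22 to 0.0383 without 1 library. Hspe1 in Snord67KO-1 was 0.0655 without introns, 0.0410 with library size alone and -0.26 to 0.0743 without 1 library. Between the clones, Hsp90aa1 was -0.0373 with library size alone, and without 1 library Hsp90ab1 was -0.13 to 0.13 and Hsp90b1 -0.15 to 0.12. Hsp90aa1 in Snord67KO-2 was -0.17 to 0.0108 without 1 library. Among list genes in Snord67KO-2, Dnaja2 was 0.15 without marked positions, 0.13 without marked and similar ones, 0.0012 with DESeq2 and -0.12 to 0.12 without 1 library, and Hsbp1 was -0.0320, -0.0924 and, without 1 library, -0.00798 to 0.32. With library size alone, Stip1 was -0.0730 and Canx -0.0244 in Snord67KO-2, and Cdc37l1 was 0.14 and Hsbp1 0.0344 in Snord67KO-1. Without the filter, Cct5 was -0.0726 in Snord67KO-1. Without 1 library, Sil1 was -0.11 to 0.73, Stip1 -0.0521 to 0.24 and Cct5 -0.29 to 0.0250 in Snord67KO-2, and Cdc37l1 was -0.24 to 0.0662, Cct5 -0.11 to 0.22 and Hsbp1 -0.26 to 0.0178 in Snord67KO-1. The causes of these changes were not tested.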
